A study of Homo sapiens with 4 samples.

Results

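The genes of the aminoacyl tRNA synthetases, the enzymes that load tRNAs with amino acids, were chosen by symbol, 19 for the cytosol and 16 for mitochondria. Of these 35 names, 31 matched a probe set of the array, 16 cytosolic and 15 mitochondrial, each with 1 probe set, among 17687 named genes in all. MARS1, QARS1, VARS1 and TARS2 had no probe set named for them here and were not analysed. Within the cytosolic set, 11 measured genes were listed from general knowledge as responsive to the stress transcription factor ATF4, and the other 5 were FARSA, FARSB, HARS1, KARS1 and RARS1. Members and lists were set with earlier results of these data known.

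Synthetases join each amino acid to its own tRNAs, the step that feeds every codon of translation. Human cells hold a cytosolic set and a mitochondrial set, both encoded in the nucleus, and by the usual naming a gene symbol ending in 1 marks the cytosolic enzyme and one ending in 2 the mitochondrial one. FARSA and FARSB, the subunits of the cytosolic phenylalanine enzyme, are exceptions to that naming. Many of the cytosolic genes are known targets of ATF4, the transcription factor of the integrated stress response, which is switched on when kinases such as the uncharged tRNA sensor GCN2 phosphorylate the initiation factor eIF2. ATF4 is known to bind composite C/EBP-ATF response elements together with a C/EBP partner.

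Gene expression was measured on microarrays in DU145, an established human prostate cancer cell line that grows without androgen, cultured with 10% serum. Cultures received for 48 h either vehicle, No.10-3 at 5 µM, 0.5 µM C-30 or 2 µM C-30, and both compounds are described as inhibitors of PSF, the RNA-binding protein made from SFPQ. There was 1 array for each condition, all of 1 cell line, so no difference has an error, a test or a p-value, and every comparison below is between single arrays. Each comparison with vehicle uses the same vehicle array, so its own deviations enter all of them. The RNA came from whole cultures, in which fewer cells of a given state and less RNA per cell cannot be told apart.

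Values are log2 signals, and a difference is the log2 signal of 1 array minus that of another, so that 1 stands for 2-fold and 0.58 for 1.5-fold on the scale of the deposited values. A gene entered a comparison when the higher of its 2 signals reached the floor of 5.56, the median of all named probe sets. The background level was the 95th percentile of 612 negative control probe sets, between 7.06 and 7.32 on the 4 arrays. All 16 cytosolic genes lay above that level on each array. Of the 15 mitochondrial genes, 10 lay under it on all 4 arrays, and these are called within background. AARS2, CARS2 and MARS2 were also under the floor, which left 28 members in each comparison. Of the epithelial markers, KRT8, KRT18, KRT19 and EPCAM were above background on every array and CDH1 was under it on all 4. Of 7 measured markers of leukocytes, endothelium, fibroblasts and hepatocytes, CD68 alone was above background, and it was higher with No.10-3 by 1.08, while CD3E, within background, was lower there by -1.17. The epithelial markers past the floor had a median of 0.66 with No.10-3 (4 of 4 higher), 0.30 with 0.5 µM C-30 (4 of 5 higher) and -0.56 with 2 µM C-30 (3 of 4 lower), with KRT19 furthest from vehicle at 0.93 with No.10-3. The mean signal of all 5 epithelial markers was 9.44 with vehicle, 10.00 with No.10-3, 9.71 with 0.5 µM C-30 and 9.09 with 2 µM C-30, and that of the 7 other markers was 5.48, 5.43, 5.37 and 5.52.

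The letters of the C/EBP-ATF element were searched in RefSeq promoter windows of build GRCh38.p14, which run from 250 bases before to 50 bases after a start site and were found for 27 of the 31 measured members. RefSeq gives some genes several start sites, and a gene counted when any of its windows held the motif; 5 of the 9 ATF4-responsive genes with a window had 2 of them, 0 of the other 5 cytosolic genes did, and 26.2% of all genes had several. The core searched was TGATGNAA on either strand. It stood in 6 of 9 measured ATF4-responsive genes with a window, in 0 of the other 5 cytosolic genes and in 1 of 13 mitochondrial genes, YARS2. It stood in 3.59% of the 14250 genes with both a window and a probe set. A palindromic CREB/ATF core, TGACGTCA, was in none of the members' windows, against 3.05% of those genes. No window of a member therefore held both motifs or an overlap of them. The matches are shown as a description of the windows. With 2 µM C-30 the expression differences of the cytosolic genes, described next, mostly followed the ATF4-responsive list. With the other treatments they did not run that way. They followed the core less closely, since AARS1 holds it and was lower, while SARS1, WARS1 and EPRS1 lack it and were higher. Any part of the core in these differences was not tested. Each line gives 30 bases read 5′ to 3′ on the strand where the core reads as spelled, with the core in capitals.
TARS1: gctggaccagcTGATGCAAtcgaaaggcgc
GARS1: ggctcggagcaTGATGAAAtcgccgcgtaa
IARS1: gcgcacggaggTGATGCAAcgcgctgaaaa
CARS1: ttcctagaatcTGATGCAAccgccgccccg
NARS1: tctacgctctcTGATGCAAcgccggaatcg
AARS1: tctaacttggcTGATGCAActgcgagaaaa
YARS2: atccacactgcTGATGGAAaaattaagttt

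These lie at chr5:33440956-33440985 (minus strand) for TARS1, chr7:30594834-30594863 (minus) for GARS1, chr9:92293692-92293721 (plus) for IARS1, chr11:3057407-3057436 (plus) for CARS1, chr18:57621804-57621833 (minus) for NARS1, chr16:70289675-70289704 (plus) for AARS1 and chr12:32756076-32756105 (minus) for YARS2. Of the 6 cytosolic matches, 5 read TGATGCAA and that of GARS1 reads TGATGAAA. Counted from the start site of the window that holds each match, those of CARS1, IARS1 and GARS1 begin 2, 13 and 33 bases before it, and those of TARS1 and NARS1 at bases 3 and 15 after it. For TARS1 and GARS1 that site is a second annotated one, 269 and 143 bases inside the gene span given below. The AARS1 match begins farther away, 187 bases before the start, as does that of YARS2 at 197. A match of letters is a description and shows no binding.

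With 2 µM C-30, 10 of the 11 ATF4-responsive cytosolic genes had a higher signal than with vehicle, with a median difference of 0.36, and only AARS1 was lower. Of the other 5 cytosolic genes, 4 were lower, with a median of -0.15 that came to between -0.08 and -0.01 after rescaling. Over all 9319 genes past the floor the median was -0.06 and 46.4% were higher. The 10 of 11 held after quantile normalization, after centring each array and after a correction for signal, and the median of these genes was then between 0.43 and 0.54, whereas the lower genes among the other 5 numbered 3 under the first 2 of these and 4 under the last.

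TARS1, the threonyl enzyme gene (chromosome 5, 33440696 to 33468091), had log2 signals of 12.22 with vehicle, 12.59 with No.10-3, 12.77 with 0.5 µM C-30 and 13.21 with 2 µM C-30. It was thus higher on each treated array, and its difference of 0.99 at the higher C-30 dose, or 1.98-fold, was the highest of all members in that comparison, exceeded by 4.90% of all genes past the floor. After rescaling that difference was between 1.06 and 1.18, past 2-fold. GARS1 (chromosome 7, 30594735 to 30634033), which makes the glycyl enzyme of both compartments, had signals of 12.53, 12.93, 12.85 and 13.20 in the same order of arrays. Its difference with 2 µM C-30 was 0.67. Both genes carry the core shown above.

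IARS1, the isoleucyl enzyme gene (chromosome 9, 92210207 to 92293697), had signals of 11.20 with vehicle, 11.15 with No.10-3, 11.20 with 0.5 µM C-30 and 11.70 with 2 µM C-30. The seryl enzyme gene SARS1 (chromosome 1, 109213893 to 109238182) had 8.91, 8.91, 8.95 and 9.35. In both genes the array of the higher C-30 dose stood alone, at 0.50 and 0.44 over vehicle, and the other 3 arrays lay close together. NARS1, the asparaginyl enzyme gene (chromosome 18, 57600656 to 57621836), had 10.87, 10.44, 11.01 and 11.31, so it was lower than vehicle by -0.42 with No.10-3 and higher by 0.44 with 2 µM C-30.

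WARS1, the tryptophanyl enzyme gene (chromosome 14, 100333790 to 100376327), had signals of 13.89 with vehicle, 14.10 with No.10-3, 13.53 with 0.5 µM C-30 and 14.24 with 2 µM C-30. The tyrosyl enzyme gene YARS1 (chromosome 1, 32775239 to 32817358) had 11.28, 10.94, 10.70 and 11.36. Both were lowest at the lower C-30 dose and highest at the higher, and they had the highest differences between the 2 doses of all members, 0.70 and 0.66. CARS1, the cysteinyl enzyme gene, differed from vehicle by 0.23 with No.10-3, -0.13 with 0.5 µM C-30 and 0.36 with 2 µM C-30. LARS1, the leucyl enzyme gene, hardly varied, with a range of 0.08 over the 4 arrays.

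AARS1, the alanyl enzyme gene (chromosome 16, 70252298 to 70289506), ran against the rest of its list. Its signal was 14.93 with vehicle, 14.75 with No.10-3, 14.54 with 0.5 µM C-30 and 14.31 with 2 µM C-30, so each treated array was lower and the 2 C-30 arrays followed dose. The difference at 2 µM was -0.62, or 1.54-fold lower, and between -0.54 and -0.35 after rescaling. The window of this gene holds the same core as that of TARS1, and its part in these values was not tested.

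**Figure D1:**
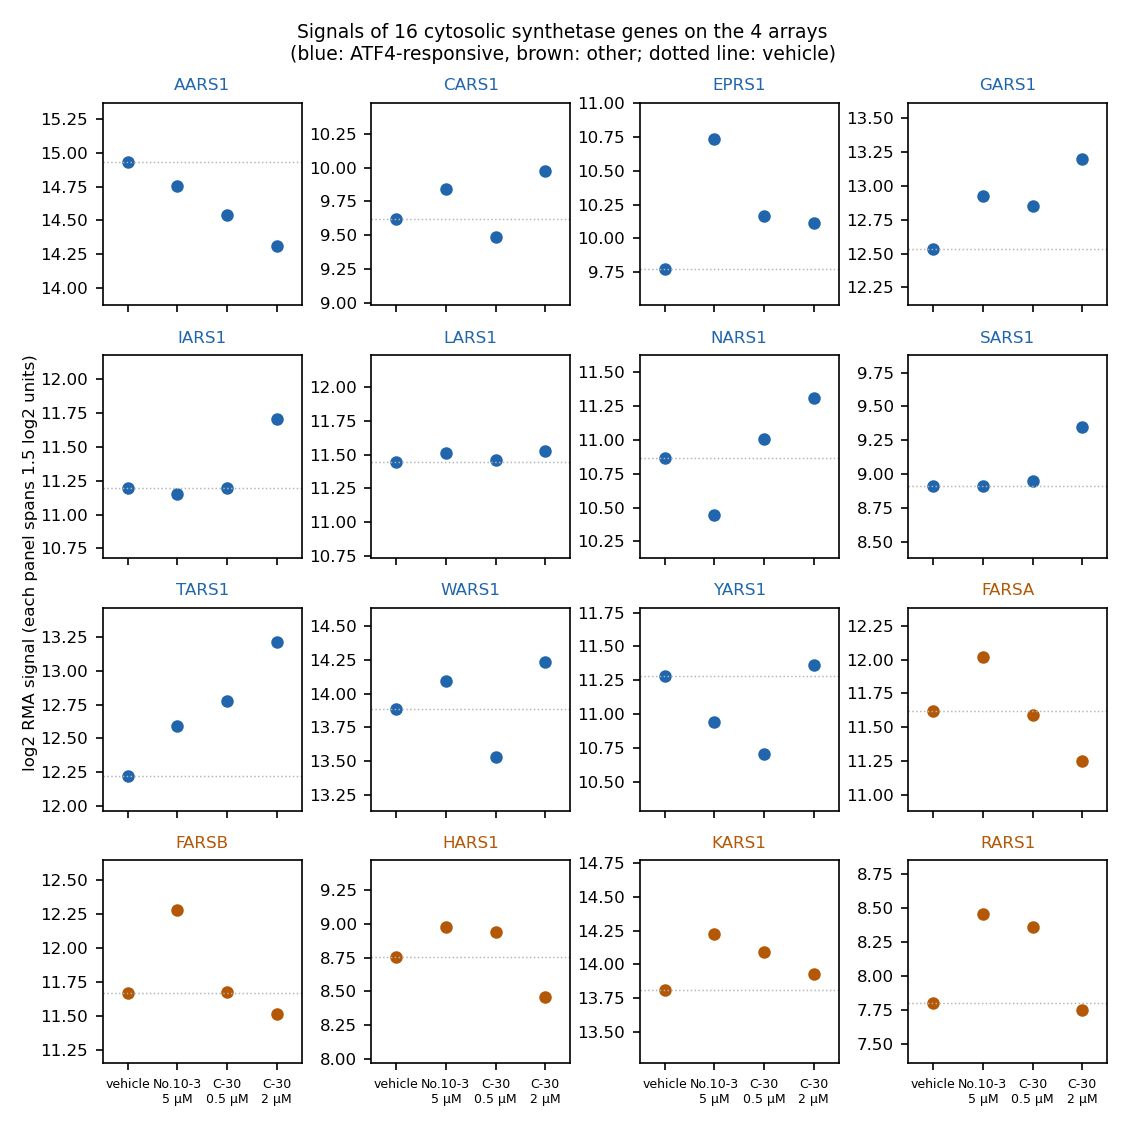
Log2 RMA signal of each of the 16 measured cytosolic synthetase genes on the 4 arrays, 1 point per array, with the vehicle level as a dotted line and each panel spanning the same 1.5 log2 units. TARS1 runs from 12.22 to 13.21 and AARS1 from 14.93 down to 14.31 between vehicle and 2 µM C-30, while LARS1 is nearly flat.

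The genes outside the ATF4-responsive list were each highest with No.10-3. FARSA, FARSB, HARS1 and RARS1 were lowest with 2 µM C-30, and KARS1 was lowest with vehicle. The order of KARS1 over the arrays was also that of EPRS1, a gene of the ATF4-responsive list. FARSA (chromosome 19, 12922479 to 12933711), for the catalytic subunit of the phenylalanyl enzyme, had signals of 11.62 with vehicle, 12.02 with No.10-3, 11.59 with 0.5 µM C-30 and 11.25 with 2 µM C-30. FARSB (chromosome 2, 222566899 to 222656092), for the other subunit of the same enzyme, had 11.67, 12.28, 11.68 and 11.51. Both subunit genes were thus highest with No.10-3, near vehicle at the lower C-30 dose and lowest at the higher dose. The mean of the epithelial markers given above was also highest with No.10-3 and lowest with 2 µM C-30, and its part in these values was not tested.

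RARS1, the arginyl enzyme gene (chromosome 5, 168486471 to 168519301), had signals of 7.80, 8.46, 8.36 and 7.75 in that order of arrays. It was higher than vehicle with No.10-3 and with 0.5 µM C-30, by 0.66 and 0.56, and differed by -0.05 at 2 µM. HARS1, the histidyl enzyme gene, differed from vehicle by 0.23, 0.19 and -0.29, and KARS1, the lysyl enzyme gene that serves both compartments, by 0.41, 0.28 and 0.12. From 0.5 to 2 µM of C-30 all 5 of these genes were lower, with a median of -0.35, while 9 of the 11 ATF4-responsive genes were higher, with a median of 0.40. Between these arrays 46.6% of 9282 genes were higher and the median of all genes was -0.03. The 5 stayed lower under each of the 3 scalings, and the ATF4-responsive genes that were higher numbered 9 or 10. An order that rose from vehicle through 0.5 to 2 µM was seen in 5 of the 11 ATF4-responsive genes (GARS1, LARS1, NARS1, SARS1 and TARS1) and in 0 of the other 5, against 19.5% of 9630 genes. It was also seen in 5 of the 15 measured mitochondrial genes (33.3%), some of them under the floor. Any rise counted, however small, as for LARS1.

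With No.10-3 at 5 µM the division was of another kind. All 5 of the other cytosolic genes were higher than with vehicle, with a median of 0.41 and a range from 0.23 to 0.66, also under each of the 3 scalings. The 11 ATF4-responsive genes had a median of 0.07, with 7 higher and 4 lower (AARS1, IARS1, NARS1 and YARS1), and 5 or 6 were higher after rescaling, with the median between -0.03 and 0.02. Over 9219 genes the median was 0.05 and 54.0% were higher. The highest synthetase was EPRS1, which encodes the fused glutamyl and prolyl enzyme (chromosome 1, 219968600 to 220046505). Its signal was 9.77 with vehicle, 10.73 with No.10-3, 10.17 with 0.5 µM C-30 and 10.11 with 2 µM C-30, so all treated arrays were above vehicle and that of No.10-3 furthest, at 0.96 or 1.95-fold. Of all genes, 4.82% had a higher difference.

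EPRS1, IARS1, KARS1, LARS1 and RARS1 are the measured enzymes of the multisynthetase complex, a large assembly that holds several cytosolic synthetases together. Their median differences were 0.41 with No.10-3, 0.28 with 0.5 µM C-30 and 0.12 with 2 µM C-30, and 4 of the 5 were higher in each case. Over all genes past the floor the medians were 0.05, -0.04 and -0.06, with 54.0%, 46.9% and 46.4% higher. Any value above 0 counted, such as 0.01 for LARS1 with 0.5 µM C-30, and rescaled values were not computed for these 5 genes. AIMP1, a scaffold protein gene of that complex, differed by 0.49, -0.04 and 0.39 and lay within background. By the catalytic fold of the enzymes, 13 class I and 14 class II genes past the floor had medians of 0.07 and 0.11 with No.10-3, 0.00 and 0.12 with 0.5 µM C-30 and 0.08 and 0.07 at 2 µM. The classes therefore had similar medians in these comparisons.

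With 0.5 µM C-30 the medians of the cytosolic groups were small, while single genes differed in both directions. The ATF4-responsive genes had a median of 0.01 with 6 of 11 higher, and the other 5 a median of 0.19 with 4 higher, against -0.04 and 46.9% over 9267 genes. After rescaling the medians were between 0.05 and 0.09 and between 0.20 and 0.23. The range ran from -0.58 for YARS1 to 0.56 for RARS1.

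**Figure D2:**
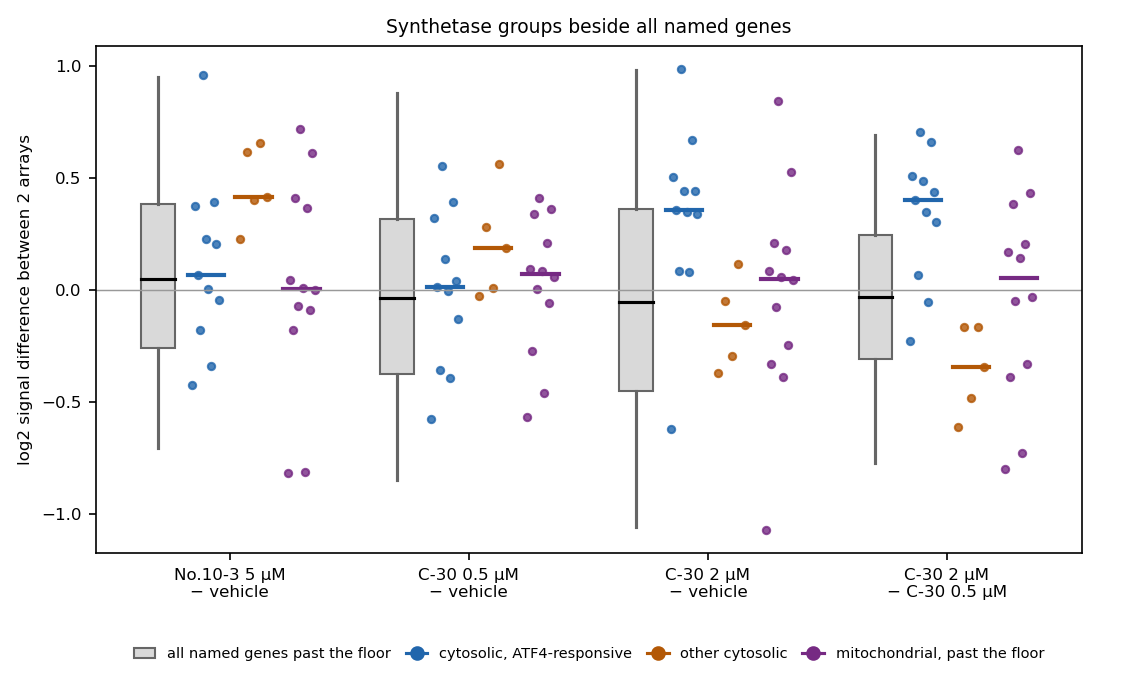
Log2 differences between arrays (vertical axis) for the 3 groups of synthetase genes beside all named genes past the floor, where the grey box spans the 25th to 75th percentile, its line the median and its whiskers the 5th to 95th percentile. Coloured points are single genes and coloured bars group medians; the ATF4-responsive bar stands at 0.36 for 2 µM C-30, where that of the other cytosolic genes is at -0.15, a value that came nearer to 0 after rescaling.

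On the deposited scale, the members' shares past 1.5-fold were near those of all genes with No.10-3 and under them with both C-30 doses, a description without a test. Past 1.5-fold, 5 of the 28 members (17.9%) were higher with No.10-3 against 14.8% of all genes, and 2 (7.14%) were lower against 8.34%. Those were EPRS1, RARS1, FARSB, SARS2 and LARS2 on the higher side and EARS2 and PARS2 on the lower, of which LARS2, EARS2 and PARS2 lay within background. The higher number fell to 2 after quantile normalization or centring and to 3 after the correction for signal, and among all genes past 1.5-fold the higher share then went from 63.9% to 53.0% or 48.8%. With 0.5 µM C-30, 0 members passed 1.5-fold, against 12.2% of all genes higher and 13.4% lower, and after rescaling 2 were higher, with 1 lower after quantile normalization.

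With 2 µM C-30, 3 members (10.7%) passed 1.5-fold upwards, TARS1, SARS2 and GARS1, against 15.1% of all genes, and AARS1 and VARS2 did so downwards (7.14%) against 18.5%. After rescaling these counts were between 4 and 6 higher and 1 lower. Among all genes past 1.5-fold in this comparison, the higher share then went from 45.0% to between 49.5% and 53.4%. Rescaled shares of all genes are not given, so the members' lower share upwards holds for the deposited scale only. Between the C-30 doses WARS1, YARS1 and FARS2 were past 1.5-fold higher and RARS1, PARS2 and VARS2 lower, 10.7% each way, against 7.89% and 9.92% of all genes. A difference of 2-fold was reached by 1 member, VARS2 (within background) with 2 µM C-30, and by none in the other 3 comparisons. After rescaling TARS1 passed it too, and after centring VARS2 did not. Among all genes the shares past 2-fold in either direction were 5.68% with No.10-3, 6.17% and 10.8% with C-30 at 0.5 and 2 µM, and 3.57% between the doses. Over the 4 arrays, 3 of the 31 measured members (9.68%), all within background, ranged over 2-fold, against 22.15% of 9630 genes. These sets differ, since the 9630 genes reached the floor on some array, and AARS2, one of the 3 members, did not. The robust SD of the difference over all genes, taken from the median absolute deviation, was 0.47, 0.51, 0.60 and 0.41 in that order, so most of the differences given for single synthetases are no larger than that spread.

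**Figure D3:**
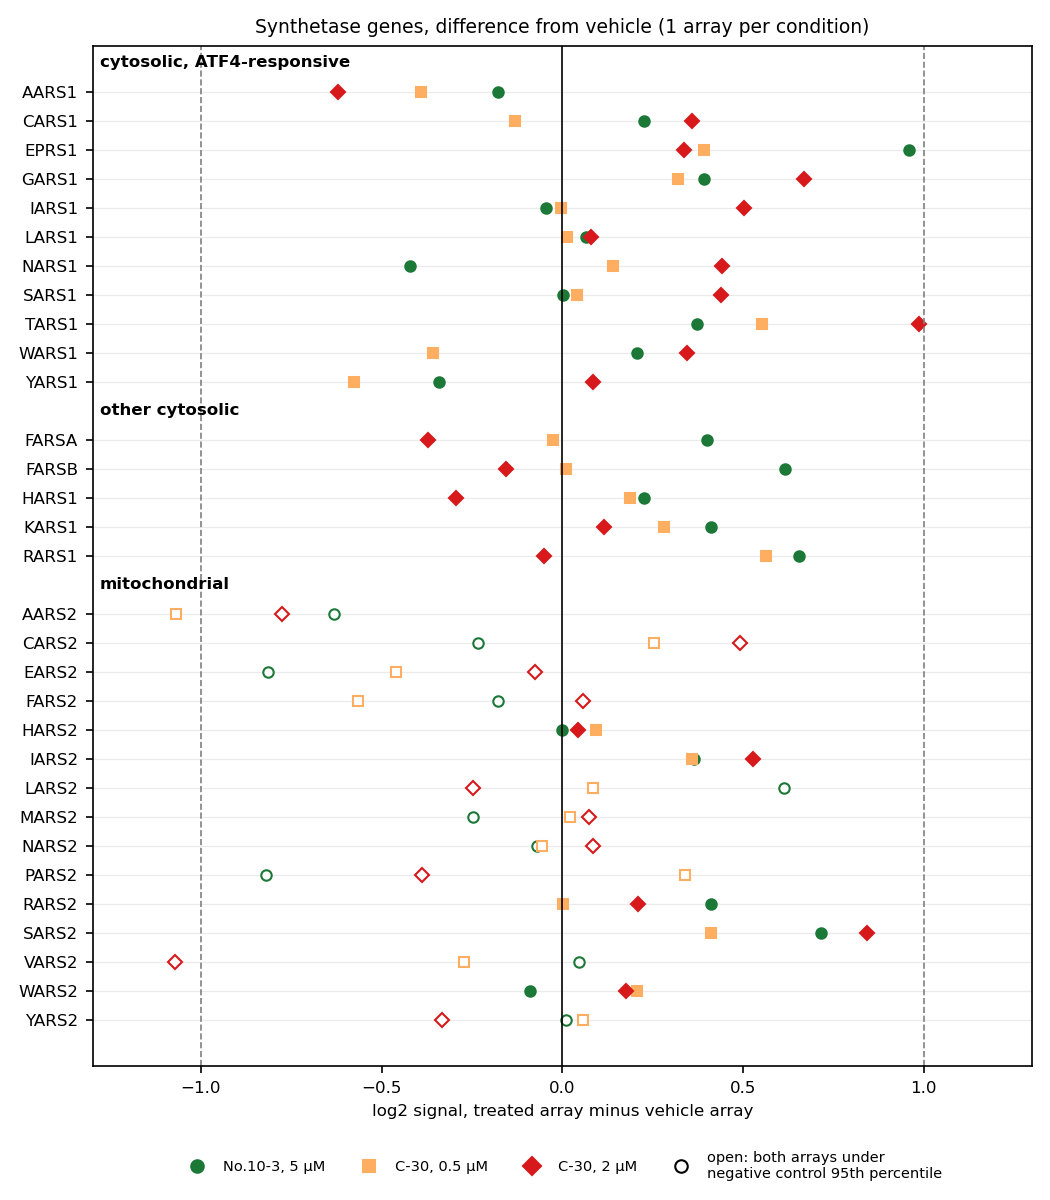
Log2 signal of each treated array minus vehicle (horizontal axis) for the 31 measured synthetase genes, grouped by listing, with colour and shape for the compound and dose and open symbols where both arrays were under the negative control background level. Dashed lines mark 2-fold; TARS1 at 0.99 and EPRS1 at 0.96 lie just inside it, and the 2 points beyond it are open.

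Among the mitochondrial genes past the floor, 7 of 12 lay within background. The 5 that did not were HARS2, IARS2, RARS2, SARS2 and WARS2, and all 5 were higher than vehicle with both C-30 doses and 3 of them with No.10-3. Their medians were 0.36 with No.10-3, 0.21 with 0.5 µM C-30 and 0.21 at 2 µM. Any value above 0 counted as higher, such as 0.003 for RARS2 with 0.5 µM C-30. HARS2 stood at 0.09 with the lower dose and 0.04 with the higher. The share of all genes above background that were higher was not counted. Over all 12 genes the medians were 0.00, 0.07 and 0.05, with 6, 8 and 7 of them higher (66.7% and 58.3% in the 2 C-30 comparisons), against 54.0%, 46.9% and 46.4% of all genes. Of the 5, WARS2 had a vehicle signal of 7.30, just under the background level of that array.

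SARS2, the mitochondrial seryl enzyme gene (chromosome 19, 38915266 to 38930763), had signals of 7.40 with vehicle, 8.12 with No.10-3, 7.81 with 0.5 µM C-30 and 8.24 with 2 µM C-30. All treated arrays were above vehicle, by 0.72, 0.41 and 0.84. IARS2, for the isoleucyl enzyme of mitochondria (chromosome 1, 220094132 to 220148041), was likewise higher on each, by 0.36, 0.36 and 0.53. RARS2 differed by 0.41, 0.00 and 0.21, and WARS2 by -0.09, 0.21 and 0.18.

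HARS1 and HARS2, the histidyl enzyme genes of cytosol and mitochondria, lie back to back on chromosome 5, HARS1 at 140673905 to 140691370 and HARS2 at 140691455 to 140699305. The 84 bases between them, chr5:140691371-140691454, lie before the annotated starts of both, and are shown whole, on the plus strand, because a cytosolic and a mitochondrial member meet there.
HARS1 and HARS2: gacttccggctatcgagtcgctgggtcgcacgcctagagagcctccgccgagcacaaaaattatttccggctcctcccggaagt
HARS1 had signals of 8.75 with vehicle, 8.98 with No.10-3, 8.94 with 0.5 µM C-30 and 8.46 with 2 µM C-30, and HARS2 had 7.95, 7.94, 8.04 and 7.99. HARS1 thus ranged over 0.52 and HARS2 over 0.09, the second smallest range among the members after LARS1.

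The other 10 mitochondrial genes lay within background on all 4 arrays, so their differences are inexact. VARS2, for the valyl enzyme, had signals of 6.38 with vehicle, 6.42 with No.10-3, 6.11 with 0.5 µM C-30 and 5.31 with 2 µM C-30. PARS2, for the prolyl enzyme, had 5.88, 5.06, 6.21 and 5.49, and EARS2, for the glutamyl enzyme, had 6.02, 5.20, 5.56 and 5.94. VARS2 was thus lowest with 2 µM C-30, and PARS2 and EARS2 with No.10-3. PARS2 was also below vehicle with 2 µM C-30, and EARS2 with both C-30 doses, by only -0.08 at 2 µM. AARS2, for the alanyl enzyme, had 4.79, 4.16, 3.72 and 4.02, all under the floor. Its difference with 0.5 µM C-30 and that of VARS2 with 2 µM C-30, both -1.07, were the lowest of the members. LARS2, for the leucyl enzyme, had 5.61, 6.22, 5.69 and 5.36, and CARS2, for the cysteinyl enzyme, 4.96, 4.72, 5.21 and 5.45. FARS2, for the phenylalanyl enzyme, had 6.57 with vehicle and differed from it by -0.18, -0.57 and 0.06. NARS2, YARS2 and MARS2 ranged over 0.15, 0.39 and 0.32.

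Among the 14 measured cytosolic genes with a promoter window, the 6 with the C/EBP-ATF core had a median difference of 0.47 with 2 µM C-30, with AARS1 the only lower one, and the 8 without it had 0.03, with 4 lower. Those 4 were FARSA, FARSB, HARS1 and RARS1, all outside the ATF4-responsive list. The listed genes without the core, SARS1, WARS1 and EPRS1, were higher by 0.44, 0.35 and 0.34. Within the list the core thus did not separate higher from lower genes. Over all genes the median was -0.06 and 46.4% were higher. With No.10-3 the medians were 0.09 with the core and 0.41 without it. With 0.5 µM C-30 they were 0.07 and 0.11. The core is part of why genes are known as ATF4 targets, so these groups are not independent of the list, and the ranges of the groups overlapped in each comparison.

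**Figure D4:**
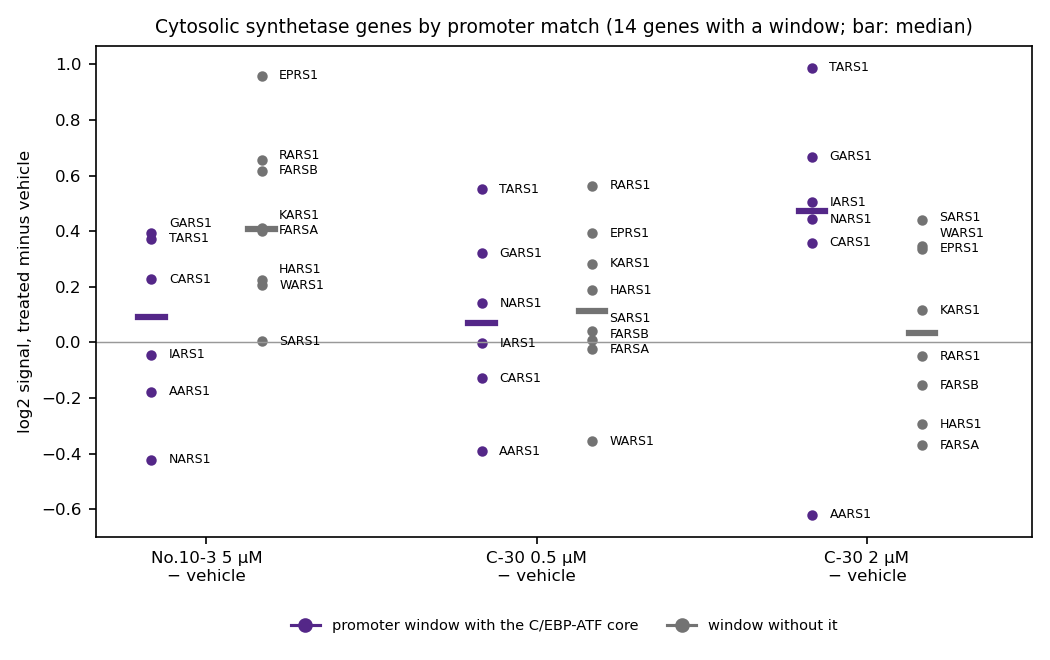
Log2 difference from vehicle (vertical axis) of the 14 cytosolic synthetase genes that had a promoter window, split by whether the window held the C/EBP-ATF core (purple, 6 genes) or not (grey, 8 genes), for the 3 treated arrays. Bars are medians, which stand at 0.47 and 0.03 with 2 µM C-30, and AARS1 is the lowest purple point there.

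Genes around the synthetases were taken from lists by role. EIF2AK4, which encodes the uncharged tRNA sensor GCN2, had signals of 6.49 with vehicle, 7.72 with No.10-3, 7.72 with 0.5 µM C-30 and 6.84 with 2 µM C-30. It was 1.23 above vehicle on the first 2 treated arrays and under the background level on the other 2 arrays, so those differences are inexact. ATF4 itself had 10.62, 10.04, 10.69 and 10.74, lowest with No.10-3, while its differences from vehicle on the C-30 arrays were 0.07 and 0.11. ATF3, a stress transcription factor gene downstream of ATF4, differed by -1.11, 0.17 and 2.16, and DDIT3, which encodes CHOP, by -0.33, 0.15 and 1.40. Both were under the background level on the vehicle array, so these values are inexact too. EIF2AK2, for the RNA-activated eIF2 kinase PKR, differed by 0.79, 1.13 and 0.76. Of the 12 measured regulators of the integrated stress response, 4 were higher than vehicle with No.10-3, 7 with 0.5 µM C-30 and 10 with 2 µM C-30, with medians of -0.23, 0.11 and 0.32, against 54.0%, 46.9% and 46.4% of all genes higher.

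The genes that supply amino acids went both ways. Of 19 genes of amino acid synthesis and import past the floor, 7 were higher with No.10-3, 7 with 0.5 µM C-30 and 9 with 2 µM C-30, and the medians were -0.15, -0.28 and -0.07; their shares higher were 36.8%, 36.8% and 47.4%, beside the same shares of all genes. The members past 2-fold were transporters. SLC7A11, the cystine importer gene, differed by 0.90, 1.07 and 1.52, and SLC38A2, for a carrier of small neutral amino acids, by 0.54, 0.76 and 1.03. ASNS, for asparagine synthetase, which makes the amino acid that the NARS1 enzyme loads, differed by 0.51, 0.43 and 0.95. NARS1 itself was on the other side of vehicle with No.10-3.

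Downstream of charging, EEF1A2, for an elongation factor that carries charged tRNA to the ribosome, had signals of 11.30 with vehicle, 11.06 with No.10-3, 10.39 with 0.5 µM C-30 and 9.90 with 2 µM C-30. It was the only member past 2-fold among 9 charging partners past the floor, at -1.41 with the higher C-30 dose. In mitochondrial translation, the initiation factor gene MTIF2 differed by 1.20, 0.49 and 1.14 and the elongation factor gene GFM1 by 1.01, 0.68 and 1.23. The release factor gene MTRF1, within background, differed by 0.79, 1.31 and 1.22. These 12 partners had medians of 0.55, 0.19 and 0.20, against 0.00, 0.07 and 0.05 for the mitochondrial synthetases. Of the partners 2 lay within background, and without such genes the medians were 0.26, 0.02 and 0.15 for the partners and 0.36, 0.21 and 0.21 for the synthetases, so the order of the groups turned round.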

How the data were processed

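Log2 signals of 4 arrays were used as deposited. The submitters' processing notes name RMA and Affymetrix Expression Console 1.3.0, and the log2 base was inferred from the range of the deposited values. The highest is 19.93, above what a scanner reading gives, so folds hold on this scale only. RMA as usually run brings the arrays to 1 common distribution. Their genome build was not given in the sources used here. Among 24351 probe sets, 17709 had 1 symbol and the others none. Symbols were updated by Entrez identifier to those of RefSeq GRCh38.p14, and 20 genes with several probe sets were averaged.

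With 1 array per condition no test was made. Differences were set beside all genes past the floor (50th percentile of named probe sets), with thresholds of 1.5-fold and 2-fold. The members and lists were chosen with earlier results of these data known. Values on every array are given, as signals or differences, for members ranging over 1.5-fold. In other lists, members past 2-fold against vehicle are named, otherwise the largest difference; ATF4 and ASNS were added after their values were seen. Alternatives changed threshold, floor, scaling, lowess correction (fraction 0.3), probe set summary, table and members kept. A median moved when it changed by more than the robust SD of 63 ERCC probe sets, of which 1 was above background. Only the count past 2-fold and the quantile step were checked on simulated data. The planted differences were larger than any seen in the members, so that check does not bear on smaller ones. Python 3.11.15, numpy 2.4.6, pandas 2.3.3, statsmodels 0.14.6 and matplotlib 3.10.9 were used.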

Additional observations from a re-analysis of the deposited data

How the results depend on the processing

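No paired analysis was possible because each condition has 1 array. Of 168 recomputed values, 157 were labelled as unchanged, medians by the tolerance above and counts by their ratio. Many of these could not move, so that total is no measure of robustness. Each member has 1 probe set, and the 2 deposited tables differ by at most 5e-05. All 16 cytosolic genes were past the floor and above background, so dropping the floor or the members within background left their medians as they were. The mitochondrial median with No.10-3 was 0.39 with a floor at the 75th percentile (7.90) and 0.36 without members within background, and with 2 µM C-30 it was 0.53 with that floor, where 3 genes were left. The number of members past the threshold was 7 with No.10-3, 5 with 2 µM C-30 and 6 between the C-30 doses at 1.5-fold. Past 2-fold it was 1 without a floor with 0.5 µM C-30 (AARS2). With 2 µM C-30 it was 0 with the higher floor or without members within background, and 2 (TARS1 and VARS2) after quantile normalization or a lowess correction, while after centring the 1 member was TARS1. Medians of the cytosolic groups moved by less than the tolerance under every setting run, although that of the 5 outside the ATF4-responsive list came near 0 (-0.01) with 2 µM C-30 after quantile normalization. All settings for the ATF4-responsive list and the other 5, with AARS1 or without it, were added after seeing the data. The single array per condition limits all values.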

Other observations

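Genes whose RefSeq span lies within 1000 bases of a measured synthetase were also read, a rule added after seeing the data. AARS1, lower on each treated array, lies 357 bases from EXOSC6, a subunit gene of the RNA exosome, and 260 bases from DDX19B, an RNA helicase gene of mRNA export. EXOSC6 differed from vehicle by -0.30 with No.10-3, -0.24 with 0.5 µM C-30 and -0.54 with 2 µM C-30, and DDX19B by -0.39, -0.58 and -0.89. All 3 genes were thus lower on all 3 treated arrays. Of the 31 measured members 3 were lower on all 3, and the share over all genes was not counted. AARS1, and SARS2 and KARS1 below, were picked from a longer list of members with such neighbours. In the other pairs, differences went together in some and apart in others. SARS2 lies 180 bases from MRPS12, a mitochondrial ribosomal protein gene, which lay within background and differed by -0.38, -0.54 and -0.79 where SARS2 stood at 0.72, 0.41 and 0.84. KARS1 lies 107 bases from TERF2IP, a telomere protein gene, which differed by 1.33, 0.33 and 1.08 beside 0.41, 0.28 and 0.12 for KARS1. Whether neighbours share a start region or probes was not tested.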
